A study of Mus musculus with 27 samples.

Results

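The 10 genes described here encode 8 enzymes that assemble and sulfate heparan sulfate (Hs6st1, Hs6st2, Hs2st1, Hs3st1, Ndst1, Ndst2, Ext1 and Ext2) and 2 syndecans that carry the chains at the cell surface (Sdc1 and Sdc4). They were chosen by name from the 22524 genes counted in each of 27 libraries. Organoids, epithelial cultures grown in Matrigel, came from the jejunum of 9 wild-type C57BL/6J mice, young adult males, 3 from each of 3 facilities: SR and SE, which are specific pathogen-free (SPF), and GF, which is germ-free. The 3 mice of a facility were littermates that shared a cage, so litter and cage cannot be told apart from facility. The other epithelial cultures were 3 of m-ICc12, a line of immortalised epithelial cells from mouse small intestine. Each organoid culture was sequenced in a pair of libraries, where the label of the second gives 8 hr with tumour necrosis factor (TNF) at 5 ng/mL and that of the first gives no treatment. The m-ICc12 libraries carry the same labels and the numbers M1 to M3, and those of 1 number are set side by side by this number alone. Untreated C57BL/6 mouse embryonic fibroblasts (MEFs) gave 3 more libraries. The organoids had been kept in culture for several passages away from the gut, m-ICc12 is 1 line, and the sources used here do not say that its 3 cultures or the 3 MEF samples were independent derivations, so p-values with these groups measure the spread between the samples only.

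In all 12 of these sets, the name of the deposited data gives the opposite treatment from the sample label, and targets of the TNF-activated factor NF-kB went against the labels. Nfkbia, which encodes the NF-kB inhibitor IkB-alpha, had 196 ± 27.7 CPM (TMM-scaled read counts relative to library size; SD, n = 9) where the organoid label reads untreated. Where it reads TNF-treated, the level was 31.1 ± 3.64 CPM (SD, n = 9). The m-ICc12 levels were 87.2 ± 23.9 and 19.5 ± 4.21 CPM (SD, n = 3 each). Nfkb2, Tnfaip3 and Relb were also lower in the library labelled TNF-treated in 9 of 9 organoid cultures and for 3 of 3 m-ICc12 numbers. Libraries are therefore named by their label only, and no direction of a TNF response is drawn. Cell types were compared over the libraries labelled untreated and again over those labelled TNF-treated. MEFs have no library with the second label, so the same 3 untreated MEF libraries stand in both. By the data names, the libraries labelled TNF-treated are the untreated ones and would be the match to the MEFs in treatment.

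The totals on genes ran from 6071103 to 43843615 counts (median 30339856), so that a floor of 3 counts corresponds to between 0.0684 and 0.494 CPM. The mitochondrial leucyl-tRNA synthetase gene Lars2 took 13.5% and 4.44% of the counts of the m-ICc12 M1 and M3 libraries labelled TNF-treated, against at most 0.688% in any other library. The cell labels were checked against marker lists. The organoids expressed all 13 intestinal markers, with a summed level of 4739 to 5987 CPM. The m-ICc12 libraries labelled untreated reached 701 to 770 CPM, of which Krt20 made up 683 CPM on average, and the MEFs 6.07 to 9.24 CPM. Over the libraries labelled untreated, the 5 general epithelial markers summed to 5325 to 6337 CPM in organoids, 1566 to 2138 in m-ICc12 cells and 16.1 to 18.6 in MEFs. Among these 5, the keratin gene Krt8 stood at 1387 ± 227 CPM in m-ICc12 cells (SD, n = 3). Epcam, Cdh1 and the intestinal factor Cdx2 had means of 974, 1011 and 180.1 CPM in organoids, of 4.37, 1.5 and 0.254 CPM in m-ICc12 cells and of 1.43, 1.44 and 0.335 CPM in MEFs. The cells labelled as an epithelial line thus nearly lacked Epcam, Cdh1 and Cdx2, while their general epithelial sum lay above that of MEFs. Of the 5 general epithelial markers, edgeR called 2 higher and 1 lower in m-ICc12 cells than in MEFs. The 10 fibroblast markers summed to 2585 to 3917 CPM in m-ICc12 cells, mostly as Vim (2516 ± 600.2 CPM; SD, n = 3) with Col1a1 at 0.820 CPM, to 15.2 to 40.0 CPM in organoids and to 8482 to 11121 CPM in MEFs. The 5 leukocyte markers summed to 65.3 to 108 CPM in m-ICc12 cells, nearly all of it Csf1r, with Cd3e, Cd79a and Itgam at 0 counts, and the 3 endothelial markers to at most 7.98 CPM in any library labelled untreated. The part of these markers in the differences between cell types was not tested. The lists name cell types only, and in bulk RNA fewer cells of a type and less RNA per cell cannot be told apart.

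Heparan sulfate is a linear polysaccharide that is attached to core proteins such as the syndecans, transmembrane proteins that serve as co-receptors for growth factors and bind matrix and microbes. Ext1 and Ext2 form the polymerase that extends the chain. The Ndst enzymes then replace acetyl by sulfate groups on glucosamine and open the chain to further modification, Hs2st1 adds sulfate to uronic acids, and the Hs6st and Hs3st enzymes add it to the 6-O and 3-O positions of glucosamine. In the gut, heparan sulfate on the basolateral side of the epithelium is known for holding the barrier and for binding Wnt and other ligands of the stem cell zone.

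Per kilobase of annotated exon, Sdc4 was the most abundant of the 10 transcripts in each cell type. In the organoid libraries labelled untreated, Sdc4 stood at 92.7 CPM per kb (71.5 to 109 over 9 libraries) and Sdc1 at 58.9 (47.6 to 72.1), and these ranges overlapped. Hs6st1 followed at 17.4 CPM per kb (14.1 to 23.1), apart from its neighbours on either side. Ext2 (8.85), Hs3st1 (7.01), Hs2st1 (6.38), Ndst2 (6.19), Ndst1 (4.70) and Ext1 (4.09 CPM per kb) came next, each overlapping the next in range, and Hs6st2 was last (0.0182). In m-ICc12 cells the order was Sdc4 (104.9 CPM per kb), Hs6st1 (32.3), Sdc1 (28.6), Ndst1 (19.1), Ext1 (14.5), Ext2 (13.2), Hs3st1 (11.3), Hs2st1 (10.4), Ndst2 (5.09) and Hs6st2 (0.00424), where the ranges of Hs6st1 and Sdc1, of Ext1 and Ext2, of Ext2 and Hs3st1, and of Hs3st1 and Hs2st1 overlapped. In MEFs the order was Sdc4 (95.7), Sdc1 (37.0), Ext1 (23.2), Ext2 (22.5), Ndst1 (20.3), Hs6st2 (16.9), Hs2st1 (13.4), Ndst2 (9.28), Hs6st1 (5.78) and Hs3st1 (0.0151 CPM per kb). There, each gene from Ext1 to Hs2st1 overlapped the next in range, and the others stood apart from their neighbours. The plot of levels by library shows the same genes as CPM without the division by length.

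**Figure D1:**
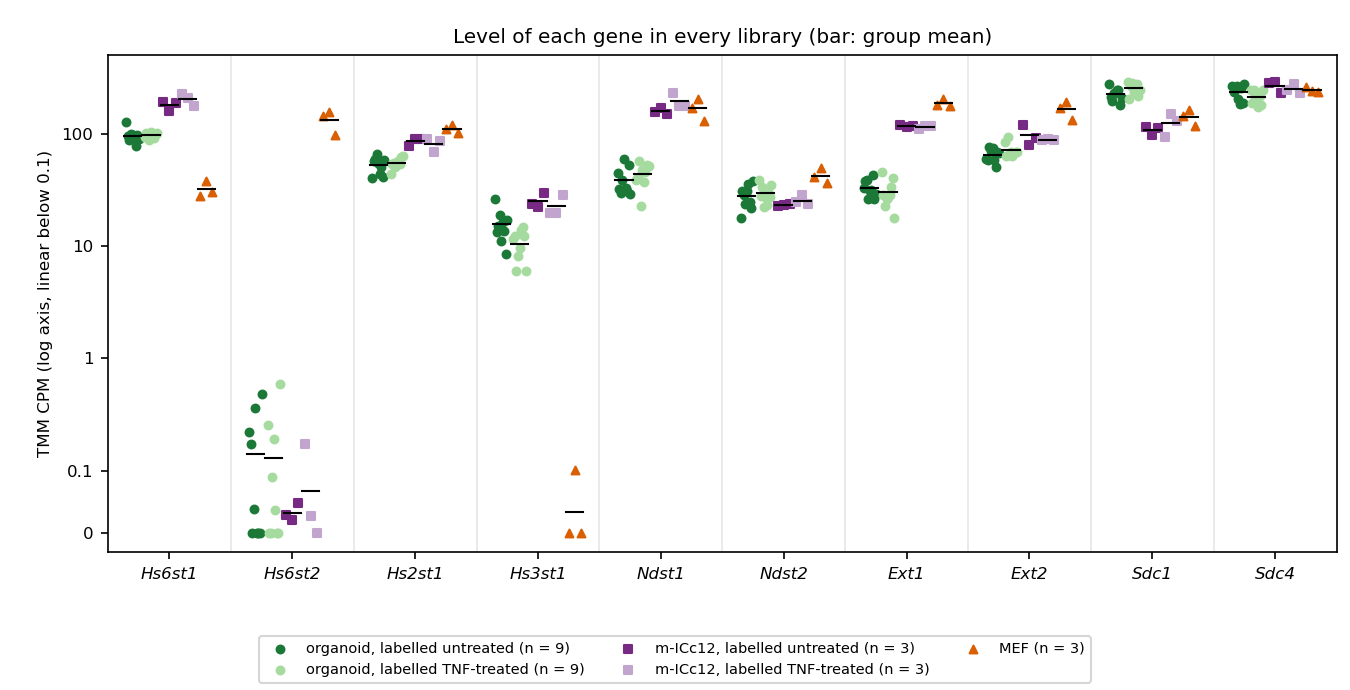
TMM CPM of each of the 10 genes (x axis) in every library (points, log axis that is linear below 0.1) for organoids, m-ICc12 cells and MEFs by treatment label, with bars at the group means. Hs6st2 is near 0 outside MEFs, Hs3st1 is near 0 in MEFs, and Sdc4 lies between 173 and 288 CPM in all libraries.

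The cell type comparisons ask how far the organoids and the cell line share the expression of these genes. Organoids grew in Matrigel and each cell type in its own medium, so matrix and medium cannot be told apart from cell type. Of the 9 genes that passed the count filter in organoids against m-ICc12 cells, 1 was higher and 5 were lower in organoids at an edgeR adjusted p under 0.05, while 60.9% of the 12962 genes tested were called (31.6% higher and 29.3% lower). Hs6st2 did not pass there. Against MEFs, 3 of 10 were higher and 6 lower in organoids, with 67.2% of 13144 genes called (34.6% higher and 32.6% lower). Of the same 10 genes, 2 were higher and 6 lower in m-ICc12 cells than in MEFs, with 59.3% of 12830 genes called (28.1% higher and 31.2% lower). Most genes differed between these cell types, so a member's call alone sets it apart from few others. The median difference of the members was -0.66, -0.81 and -0.41 on the log2 scale in these 3 comparisons, against 0.03, 0.03 and -0.05 over all genes tested. The groups of libraries did not overlap in CPM for 6 of 9, 8 of 10 and 8 of 10 members, as they did not for 49.5%, 57.0% and 65.5% of all genes tested. In both MEF comparisons, Hs6st2 passed the count filter through the MEFs alone and Hs3st1 through the epithelial cultures alone. Their calls and lack of overlap restate where each was detected and are no further evidence.

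**Figure D2:**
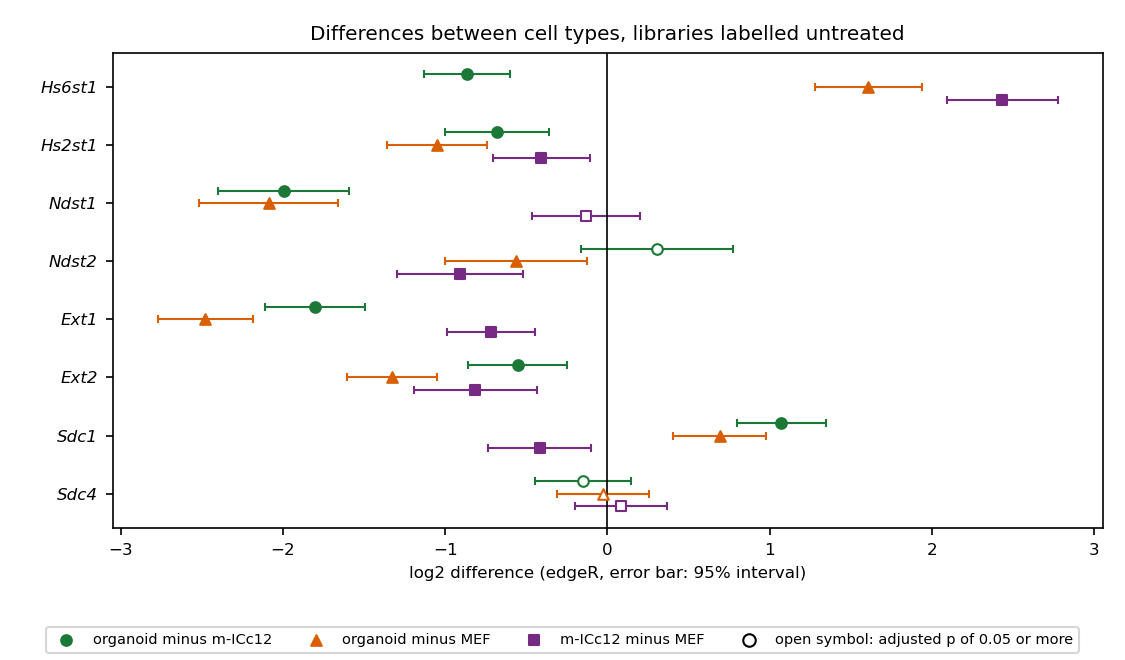
log2 differences (x axis) of 8 of the genes (y axis) between cell types over the libraries labelled untreated (9 organoid, 3 m-ICc12, 3 MEF), with 95% intervals from edgeR and open symbols for an adjusted p of 0.05 or more. Hs6st2 and Hs3st1 are left out because a group is at or near 0 counts, and Ndst1 and Ext1 lie furthest to the left for the organoid differences.

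Hs6st1 and Hs6st2 encode 6-O-sulfotransferases. Hs6st1 (ENSMUSG00000045216, chr1:36068400-36106446, plus strand, GRCm38) was present in all libraries, and Hs6st2 (ENSMUSG00000062184, chrX:51387212-51681856, minus strand) was well above the floor in MEFs and reached at most 21 counts in any other library. Hs6st1 stood at 78.0 CPM in the lowest, 96.1 in the median and 128 in the highest of the 9 organoid libraries labelled untreated. It stood at 192, 158 and 186 CPM in the m-ICc12 libraries M1, M2 and M3 with this label, and at 28.0, 37.7 and 30.4 CPM in the MEF libraries R1, R2 and R3. All organoid libraries thus lay between those of the other cell types, with no overlap. The difference was 1.82-fold in favour of m-ICc12 cells (log2 difference organoid minus m-ICc12 -0.87, SE 0.12, edgeR adjusted p = 1.45e-05) and 3.05-fold in favour of organoids against MEFs (log2 1.61, SE 0.15, adjusted p = 1.32e-07). m-ICc12 cells had 5.40-fold more than MEFs (log2 2.43, SE 0.16, adjusted p = 3.17e-08). The study had picked Hs6st1 for an expression signature from these same cultures, so its difference between cell types is not independent evidence of that choice. A transcript on the other strand, Gm37335, overlaps an exon of Hs6st1 and was not among the counted genes.

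Hs6st2 gave the reverse pattern. It stood at 144, 156 and 96.9 CPM in the MEF libraries R1, R2 and R3, while the 3 m-ICc12 libraries labelled untreated had 1, 1 and 2 counts, under the floor. The 9 organoid libraries with this label had 0 to 11 counts (0 to 0.488 CPM), and 4 of them were above the floor. Over summed counts, the share of Hs6st2 was 4030 times higher in MEFs than in m-ICc12 cells (14789 against 4 counts, 95% exact interval 1574 to 14794) and 996 times higher than in organoids (14789 against 34 counts, interval 713 to 1439), where the intervals cover counting error only. As a share of all 6-O-sulfotransferase transcripts per kb, Hs6st1 made up 99.9% ± 0.138 in organoids (SD, n = 9) and 25.8% ± 4.66 in MEFs, where Hs6st2 made up 74.0% ± 4.45 (SD, n = 3). The summed level of Hs6st1, Hs6st2 and Hs6st3 was 14.1 to 23.1 CPM per kb in organoids and 17.9 to 26.8 in MEFs, and these ranges overlapped although those of Hs6st1 and Hs6st2 did not. The sum was 28.5 to 34.7 CPM per kb in m-ICc12 cells.

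Hs3st1 (ENSMUSG00000051022, chr5:39613935-39755475, minus strand, GRCm38) encodes a 3-O-sulfotransferase that is known for making the antithrombin-binding site of heparan sulfate. The organoid libraries labelled untreated ran from 8.43 CPM over a median of 15.1 to 26.4 CPM, and the m-ICc12 libraries M1, M2 and M3 stood at 23.8, 22.5 and 29.4 CPM. The MEF libraries R1 and R3 had 0 counts and R2 had 4 (0.101 CPM). Hs3st1 was thus detected in both epithelial cultures and, in MEFs, above the floor in 1 library only. The share of summed counts was 402 times higher in organoids than in MEFs (3687 against 4 counts, 95% exact interval 157 to 1478, counting error only) and 702 times higher in m-ICc12 cells (3062 against 4 counts, interval 274 to 2579). Between organoids and m-ICc12 cells, which overlapped in range, the log2 difference was -0.66 (SE 0.29) and missed the threshold (edgeR adjusted p = 0.0553). It was past the threshold over the libraries labelled TNF-treated (log2 -1.10, adjusted p = 0.00306) and with both libraries of a culture or number added up (log2 -0.91, adjusted p = 8.97e-04). Among the 7 Hs3st genes per kb, Hs3st1 made up 69.8% ± 12.4 in organoids, with most of the rest from Hs3st3b1 (29.4% ± 11.8; SD, n = 9). It made up 93.8% ± 2.30 in m-ICc12 cells (SD, n = 3), and in MEFs Hs3st3a1 took 89.4% ± 1.42 (SD, n = 3).

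The 250 bases before the RefSeq start of Hs6st1 and those before the start of Hs3st1 are shown because both genes were lower in MEFs than in either epithelial culture, Hs3st1 to the floor and Hs6st1 to 28.0 to 37.7 CPM. They are given 5′ to 3′ on the strand of the gene (RefSeq, GRCm38.p6), at chr1:36068150-36068399, plus strand, for Hs6st1 and at chr5:39644635-39644881, minus strand, for Hs3st1, where 3 bases that an annotated exon covers were left out. Capitals mark GC boxes (GGGCGG) and TATA boxes (TATAAA), each searched on both strands.
Hs6st1: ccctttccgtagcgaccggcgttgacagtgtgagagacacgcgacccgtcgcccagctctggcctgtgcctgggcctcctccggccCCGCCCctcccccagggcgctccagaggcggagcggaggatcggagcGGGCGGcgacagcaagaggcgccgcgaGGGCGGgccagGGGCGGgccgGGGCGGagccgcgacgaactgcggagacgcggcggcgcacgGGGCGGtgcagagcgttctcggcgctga
Hs3st1: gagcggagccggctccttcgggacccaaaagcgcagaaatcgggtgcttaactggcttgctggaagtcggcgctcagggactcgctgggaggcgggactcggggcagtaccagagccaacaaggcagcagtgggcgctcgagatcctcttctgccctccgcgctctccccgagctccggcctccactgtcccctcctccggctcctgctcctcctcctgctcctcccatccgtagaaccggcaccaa
The Hs6st1 window held 6 GC boxes and 37 CpG dinucleotides, more than 97.8% of the 32851 promoter windows of this length, while the median window held 6 CpG. The Hs3st1 window held 19 CpG and no match to either motif. It lies inside the annotated span of Hs3st1, which begins at chr5:39755475 on the minus strand, so any start further upstream is not covered. Hs6st2 has 2 listed starts, with 7 CpG and 1 TATA box in the window of the first and 26 CpG and 0 TATA boxes in that of the second, and no GC box in either. Over all windows, 32.7% held a GC box and 12.4% a TATA box. Of the 10 genes, 8 had a window in the table. A match is a match of letters, and the data hold no measurement of binding or chromatin at these sites.

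Ndst1 and Ndst2 encode N-deacetylase/N-sulfotransferases, which act first in the modification of the chain. Ndst1 (ENSMUSG00000054008) stood at 29.0 CPM in the lowest, 32.7 in the median and 59.4 in the highest organoid library labelled untreated. It stood at 156, 168 and 151 CPM in m-ICc12 M1, M2 and M3 and at 170.3, 204 and 131 CPM in MEF R1, R2 and R3. The organoids lay below all libraries of the other cell types, which overlapped each other. The difference was 3.99-fold against m-ICc12 cells (log2 -1.995, SE 0.19, edgeR adjusted p = 1.25e-07) and 4.26-fold against MEFs (log2 -2.09, SE 0.20, adjusted p = 1.30e-07). m-ICc12 cells and MEFs differed by -0.13 (95% interval -0.47 to 0.20, adjusted p = 0.480).

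Ndst2 (ENSMUSG00000039308) varied less between cell types. The organoid libraries ran from 18 over 28.7 to 38.1 CPM, the m-ICc12 libraries M1, M2 and M3 stood at 22.7, 23.1 and 23.7 CPM, and the MEF libraries R1, R2 and R3 at 40.8, 49.2 and 36.5 CPM. The m-ICc12 values lay inside the organoid range (log2 difference 0.31, 95% interval -0.16 to 0.78, edgeR adjusted p = 0.245). MEFs were higher than organoids by 1.48-fold (log2 -0.57, SE 0.21, adjusted p = 0.0232), a call that was lost without R1 or R2 (adjusted p = 0.0564 and 0.141). MEFs were higher than m-ICc12 cells by 1.88-fold (log2 -0.91, SE 0.18, adjusted p = 7.79e-04). Per kb, Ndst1 made up 43.3% ± 10.4 of the 4 Ndst transcripts in organoids (SD, n = 9), 78.2% ± 1.68 in m-ICc12 cells and 67.9% ± 1.68 in MEFs (SD, n = 3 each). Ndst2 made up 56.7% ± 10.4 in organoids, with a range over cultures from 42.1% to 70.5%.

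Ext1 and Ext2 encode the subunits of the polymerase. Ext1 (ENSMUSG00000061731, chr15:53064038-53346159, minus strand, GRCm38) ran from 26.3 over 31.3 to 42.9 CPM in the organoid libraries labelled untreated. It stood at 120.0, 114 and 118 CPM in m-ICc12 M1, M2 and M3 and at 179, 205 and 178 CPM in MEF R1, R2 and R3, with no overlap between any of the cell types. Organoids had 3.49-fold less than m-ICc12 cells (log2 -1.80, SE 0.15, edgeR adjusted p = 1.65e-08) and 5.58-fold less than MEFs (log2 -2.48, SE 0.14, adjusted p = 1.43e-10). m-ICc12 cells had 1.64-fold less than MEFs (log2 -0.72, SE 0.12, adjusted p = 2.92e-04).

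Ext2 (ENSMUSG00000027198, chr2:93661028-93822568, minus strand) followed the same order with smaller differences. It ran from 50.8 over 67.6 to 75.8 CPM in organoids, stood at 119, 79.2 and 92.5 CPM in m-ICc12 M1, M2 and M3 and at 170.1, 193 and 132 CPM in MEF R1, R2 and R3. The groups did not overlap. Organoids had 1.47-fold less than m-ICc12 cells (log2 -0.55, SE 0.14, edgeR adjusted p = 0.00318) and 2.51-fold less than MEFs (log2 -1.33, SE 0.13, adjusted p = 1.74e-07). The first of these was lost without M1 (log2 -0.37, adjusted p = 0.0576). Over the libraries labelled TNF-treated, untreated by their data names, it was smaller (log2 -0.30, edgeR adjusted p = 0.0494). m-ICc12 cells had 1.76-fold less than MEFs (log2 -0.81, SE 0.17, adjusted p = 0.00143).

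Hs2st1 (ENSMUSG00000040151, chr3:144429706-144570181, minus strand), the uronyl 2-O-sulfotransferase gene, ran from 40.2 over 54.5 to 65.8 CPM in organoids. It stood at 77.3, 90.7 and 89.0 CPM in m-ICc12 M1, M2 and M3 and at 109, 119 and 102 CPM in MEF R1, R2 and R3, again without overlap. Organoids had 1.61-fold less than m-ICc12 cells (log2 -0.68, SE 0.15, edgeR adjusted p = 9.42e-04) and 2.07-fold less than MEFs (log2 -1.05, SE 0.14, adjusted p = 8.37e-06). The difference between m-ICc12 cells and MEFs (log2 -0.41, SE 0.14, adjusted p = 0.0219) was lost without M1, R1 or R2 (adjusted p = 0.0635, 0.129 and 0.159) and with all 27 libraries in 1 fit (0.0865).

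Sdc1 and Sdc4 encode syndecans, of which syndecan-1 is known as the main syndecan of epithelia. Sdc1 (ENSMUSG00000020592, chr12:8771323-8793715, plus strand, GRCm38) ran from 181 over 228 to 275 CPM in the organoid libraries labelled untreated. It stood at 115, 98.4 and 113 CPM in m-ICc12 M1, M2 and M3 and at 143, 163 and 116 CPM in MEF R1, R2 and R3, below all organoid libraries. Organoids had 2.10-fold more than m-ICc12 cells (log2 1.07, SE 0.13, edgeR adjusted p = 2.16e-06) and 1.62-fold more than MEFs (log2 0.69, SE 0.13, adjusted p = 2.66e-04). m-ICc12 cells were lower than MEFs (log2 -0.42, SE 0.15, adjusted p = 0.0261). That difference was lost with the m-ICc12 libraries labelled TNF-treated, untreated by their data names, against the same MEFs (log2 -0.18, adjusted p = 0.452). It was also lost with upper quartile scaling (0.0584), all 27 libraries in 1 fit (0.0817), the libraries of a number added up (log2 -0.26, adjusted p = 0.109) and without M2, R1 or R2 (0.0690, 0.15 and 0.25).

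Sdc4 (ENSMUSG00000017009, chr2:164424247-164443887, minus strand) ran from 182 over 254 to 279 CPM in organoids and stood at 282, 288 and 231 CPM in m-ICc12 M1, M2 and M3 and at 258, 240.1 and 233 CPM in MEF R1, R2 and R3. All 3 cell types overlapped. The log2 differences were -0.15 for organoids against m-ICc12 cells (95% interval -0.45 to 0.14, edgeR adjusted p = 0.361), -0.02 for organoids against MEFs (-0.31 to 0.26, adjusted p = 0.878) and 0.08 for m-ICc12 cells against MEFs (-0.20 to 0.37, adjusted p = 0.608). A difference of more than 0.45 in either direction lay outside each of these intervals. The sign of the organoid difference from MEFs turned with upper quartile scaling (0.0055). Among the 4 syndecans per kb, Sdc4 and Sdc1 made up 60.6% ± 4.32 and 38.8% ± 4.47 in organoids (SD, n = 9) and 78.4% ± 3.05 and 21.5% ± 3.03 in m-ICc12 cells. In MEFs they made up 46.8% ± 1.61 and 18% ± 2.29, with Sdc2 at 32.6% ± 1.29 (SD, n = 3 each).

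**Figure D3:**
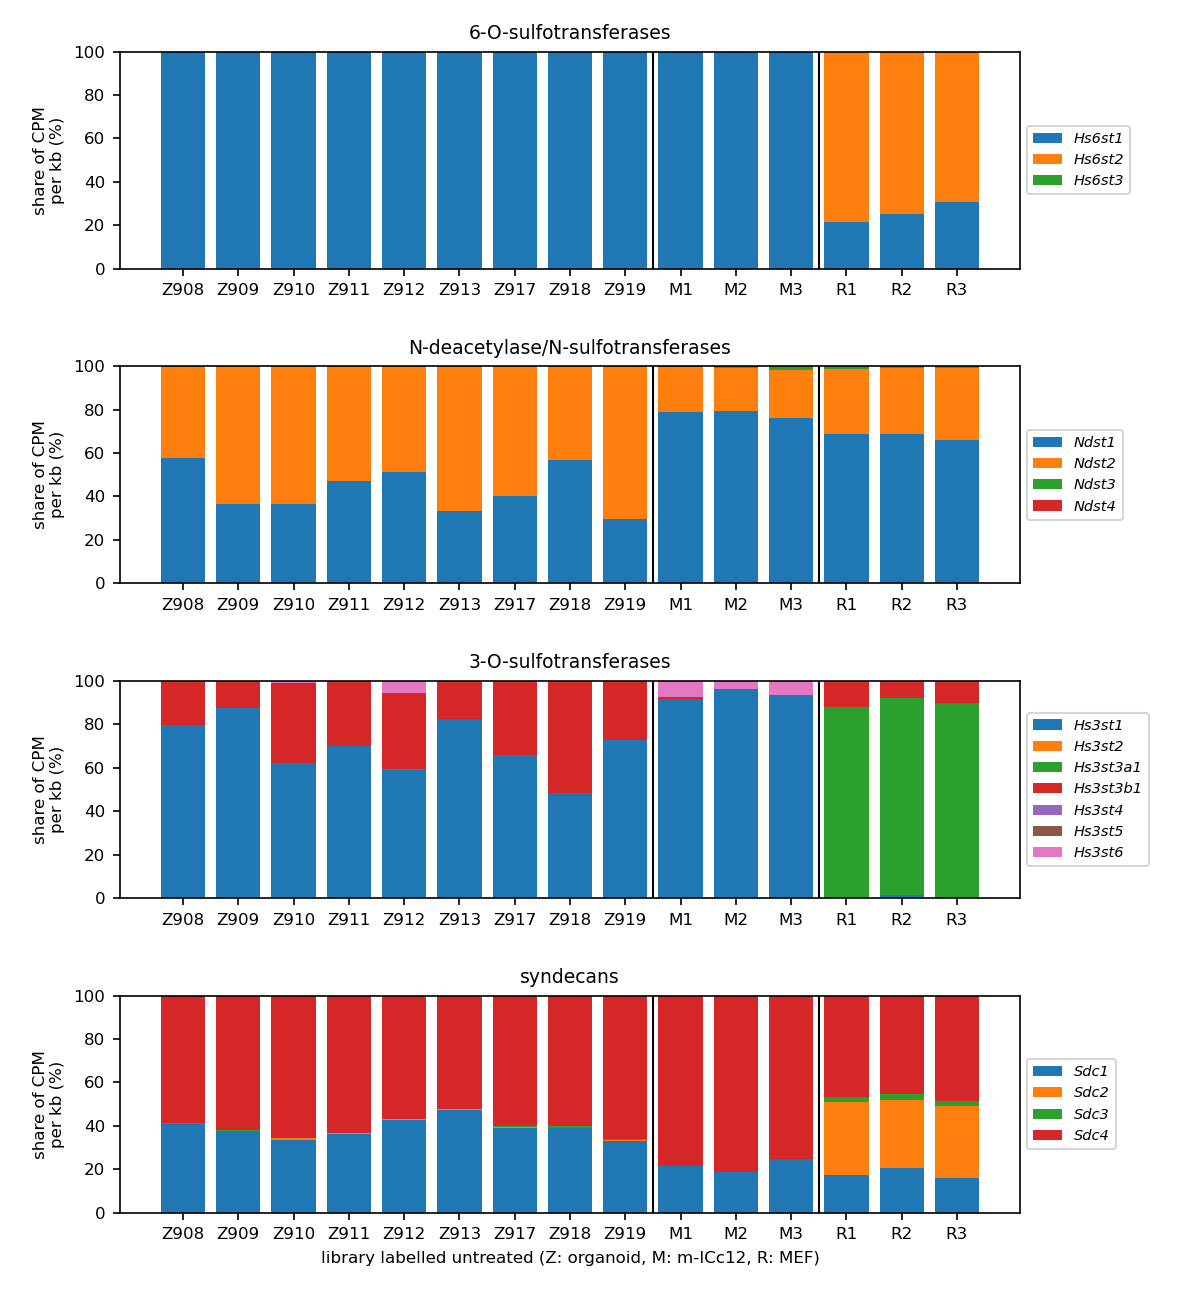
Share of each gene (stacked colours, y axis in percent of the family's CPM per kb) in 4 gene families for the 15 libraries labelled untreated (x axis), with vertical lines between organoids (Z), m-ICc12 cells (M) and MEFs (R). Hs6st2 takes 69.3% to 78.2% of its family in MEFs, Ndst2 42.1% to 70.5% in organoids, and Sdc2 31.2% to 33.7% in MEFs.

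Ratios of related genes within a library do not depend on scaling between libraries, and 4 of them were compared over 3 pairs of cell types with exact two-sided permutation tests, adjusted over these 12 comparisons. The log2 ratio of counts of Ndst1 to Ndst2 was 0.46 ± 0.62 in organoids (SD, n = 9), 2.77 ± 0.10 in m-ICc12 cells and 1.98 ± 0.12 in MEFs (SD, n = 3 each). The organoid ratio was lower than in either other cell type (exact permutation p = 0.00909, adjusted p = 0.0156 in both comparisons), at the smallest p that 9 against 3 libraries can give. Ext1 to Ext2 stood at -0.98 ± 0.38 in organoids, 0.30 ± 0.26 in m-ICc12 cells and 0.20 ± 0.20 in MEFs, with the same exact p for both organoid differences. Ext1 was thus lower relative to Ext2 in organoids than in the other cell types, by 1.28 and 1.18 on the log2 scale, while m-ICc12 cells and MEFs differed by 0.10 (exact permutation p = 0.700). Sdc1 to Sdc4 stood at -0.07 ± 0.27 in organoids, -1.29 ± 0.26 in m-ICc12 cells and -0.80 ± 0.23 in MEFs, again with an exact p of 0.00909 for both organoid differences. Hs6st1 to Hs6st2 differed between organoids and MEFs by 12.34 with 0.5 added to each count (exact permutation p = 0.00909, adjusted p = 0.0156), where the size rests on the added 0.5. Each of the 2 genes alone separated MEFs from the other cell types, in opposite directions. The p of their ratio against MEFs could thus only be the smallest possible and adds no evidence. Between organoids and m-ICc12 cells the ratio of Hs6st1 to Hs6st2 differed by -1.66 (exact permutation p = 0.245). The 3 against 3 comparisons of m-ICc12 cells with MEFs cannot give a p below 0.100, and 3 of the 4 reached that value.

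A further 75 genes were taken as 7 whole lists, 52 of them from the heparan sulfate pathway. The others were 16 genes for chondroitin and dermatan sulfate and 7 for syndecan partners and sheddases, and the pooled shares cover all 7 lists. Against m-ICc12 cells, 60 of the 75 were tested, with 38.3% higher and 36.7% lower in organoids where 31.6% and 29.3% of all genes were. Against MEFs, 64 were tested, with 29.7% higher and 46.9% lower in organoids where 34.6% and 32.6% of all genes were. In some tested genes, all libraries of 1 group stood at or under the floor of 3 counts. Against m-ICc12 cells these were 1 linker, 1 modifying, 3 core and 2 chondroitin genes. Against MEFs they were 2 modifying, 1 core and 2 chondroitin genes and 2 partners. Such genes passed the count filter through the other group alone, so their calls restate where each was detected and are no further evidence. Of 7 genes for the linker that joins the chain to its core protein, 4 were higher and 0 lower in organoids than in m-ICc12 cells (median 1.18 on the log2 scale against 0.03 over all genes), and 3 were higher and 1 lower than in MEFs (median 0.55). Fam20b, the xylose kinase that promotes completion of the linker, stood at 230.1 ± 23.4 CPM in organoids (SD, n = 9), 95.1 ± 9.35 in m-ICc12 cells and 93.2 ± 2.37 in MEFs (SD, n = 3 each; edgeR adjusted p = 9.51e-08 and 2.77e-08). Xylt1, a xylosyltransferase that starts the linker, stood at 1.83 ± 1.94 CPM in organoids, and at most 1 count was found in any m-ICc12 library labelled untreated. Of 8 genes for the sulfate donor and the sugar precursors, 5 were higher and 1 lower in organoids than in m-ICc12 cells (median 0.73), and 5 higher and 2 lower than in MEFs (median 0.55). Papss2, which makes the sulfate donor, stood at 24.9 ± 13.5 CPM in organoids, 1.23 ± 0.441 in m-ICc12 cells and 2.75 ± 1.26 in MEFs (log2 differences 4.37 and 3.19, adjusted p = 4.54e-06 and 8.15e-05). Bpnt1, a phosphatase that clears the used donor, stood at 243 ± 43.7, 107 ± 15.4 and 54.2 ± 7.04 CPM in the same order (log2 differences 1.21 and 2.19, adjusted p = 8.37e-06 and 1.20e-08).

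Of the 13 other chain-modifying genes, 7 were tested between organoids and m-ICc12 cells, with 2 higher and 3 lower in organoids (median -0.91), and 7 against MEFs, with 2 higher and 5 lower (median -1.02). Hs3st3b1, a 3-O-sulfotransferase gene, stood at 14.2 ± 5.21 CPM in organoids, 0.125 ± 0.196 in m-ICc12 cells and 1.40 ± 0.310 in MEFs (log2 differences 6.91 and 3.36, edgeR adjusted p = 1.02e-05 and 2.03e-05). The first of these ran from 6.30 to 9.85 when 1 library was left out, since the m-ICc12 libraries are near 0 counts. Extl1, an exostosin-like glycosyltransferase gene, had 5.81 ± 3.51 CPM in organoids, 0.681 ± 0.984 in m-ICc12 cells and 0.688 ± 0.565 in MEFs. Ndst3 had at most 1 count in an organoid library labelled untreated, 2.27 ± 2.09 CPM in m-ICc12 cells and 2.48 ± 1.23 in MEFs. Hs3st3a1, a relative of Hs3st3b1, stood at 10.0 ± 1.15 CPM in MEFs, with at most 1 count in any organoid library labelled untreated and 0 counts in the 3 m-ICc12 libraries. Glce, the epimerase that turns glucuronic into iduronic acid, was lower in organoids than in MEFs (35.8 ± 5.90 against 120.0 ± 13.4 CPM, log2 -1.72, adjusted p = 2.29e-08). It was also lower in m-ICc12 cells than in MEFs (log2 -2.11 to -1.71 when 1 library was left out).

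Of 12 genes that trim or break down the chain, 10 were tested against m-ICc12 cells, with 5 higher and 5 lower in organoids (median 0.10), and 11 against MEFs, with 3 higher and 4 lower (median -0.36). Sulf1 and Sulf2 encode extracellular 6-O-endosulfatases. Sulf2 stood at 129 ± 22.0 CPM in organoids, 24.2 ± 2.54 in m-ICc12 cells and 9.97 ± 0.964 in MEFs (log2 differences 2.44 and 3.71, edgeR adjusted p = 2.76e-09 and 3.11e-11). Sulf1 stood at 141 ± 10.4 CPM in MEFs and at 0.0663 ± 0.0747 CPM, with at most 5 counts in a library, in organoids. It was also lower in m-ICc12 cells than in MEFs (log2 -11.7 to -11.1 when 1 library was left out). Hpse, which encodes heparanase, was higher in organoids (20.3 ± 6.75 CPM) than in m-ICc12 cells (2.41 ± 0.479 CPM, log2 3.10, adjusted p = 3.54e-06) and MEFs (0.99 ± 0.718 CPM, log2 4.35, adjusted p = 2.28e-06).

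Of 12 other core protein genes, 10 were tested, with 2 higher and 6 lower in organoids than in m-ICc12 cells (median -2.21) and 1 higher and 7 lower than in MEFs (median -4.24). Against m-ICc12 cells, the 2 higher genes, Sdc2 and Gpc2, and the lower Gpc6 passed the count filter through 1 group alone. Hspg2, the gene of the basement membrane proteoglycan perlecan, stood at 13.2 ± 7.65 CPM in organoids, 403 ± 98.0 in m-ICc12 cells and 832 ± 222 in MEFs (log2 differences -4.91 and -5.96, edgeR adjusted p = 6.60e-08 and 7.31e-09). Col18a1, for the core of collagen XVIII, stood at 2.41 ± 1.90 CPM in organoids and 1141 ± 214 in m-ICc12 cells (log2 -8.83, adjusted p = 7.90e-11). Sdc2, a syndecan of mesenchymal cells, stood at 2.04 ± 2.02 CPM in organoids and 236 ± 19.6 in MEFs (log2 -6.87, adjusted p = 9.33e-08), with at most 3 counts in an m-ICc12 library. The glypican genes, for cores held in the membrane by a lipid anchor, differed among themselves. Gpc2 stood at 10.6 ± 3.04 CPM in organoids and 2.5 ± 0.930 in MEFs, with at most 1 count in an m-ICc12 library, and Gpc6 at 26.1 ± 1.10 CPM in m-ICc12 cells and 6.53 ± 3.08 in MEFs, with at most 2 counts in an organoid library. Gpc1 stood at 4.51 ± 2.03 CPM in organoids and 126 ± 9.33 in MEFs (log2 -4.78, adjusted p = 3.45e-09). It was also lower in m-ICc12 cells than in MEFs (log2 -2.73 to -2.51 when 1 library was left out). Tgfbr3, for the TGF-beta co-receptor betaglycan, stood at 0.979 ± 1.71 CPM in organoids, 48.1 ± 9.66 in m-ICc12 cells and 35.5 ± 3.85 in MEFs (log2 -5.58 and -5.15, adjusted p = 1.16e-04 and 2.86e-04). Of 16 genes for the related chondroitin and dermatan sulfate chains, 2 were higher and 6 lower in organoids among the 12 tested against m-ICc12 cells (median -0.98), and 2 higher and 9 lower among the 14 tested against MEFs (median -2.65). Dse, a dermatan epimerase, stood at 1.21 ± 1.12 CPM in organoids and 99.3 ± 4.17 in MEFs (log2 -6.30, adjusted p = 2.48e-07). It was also lower in m-ICc12 cells than in MEFs (log2 -6.24 to -5.27 when 1 library was left out). Of 7 genes for syndecan binding partners and sheddases, 3 were higher and 1 lower among the 6 tested against m-ICc12 cells (median 0.82), and 3 higher and 2 lower among 7 against MEFs (median 0.22). The Mmp7 call against m-ICc12 cells (log2 1.47, adjusted p = 0.0492) was lost under 10 alternatives, among them without M1, M2 or M3 (0.121, 0.152 and 0.0647). Sdcbp2, which encodes the syndecan-binding protein syntenin-2, stood at 40.6 ± 12.3 CPM in organoids, 0.398 ± 0.213 in m-ICc12 cells and 1.72 ± 1.31 in MEFs (log2 differences 6.66 and 4.62, adjusted p = 4.01e-09 and 3.92e-07).

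Between m-ICc12 cells and MEFs, 66 list genes were tested, with 22.7% higher and 42.4% lower in m-ICc12 cells where 28.1% and 31.2% of all genes were. Of these, 1 linker gene was higher and 3 lower in m-ICc12 cells, as were 1 and 3 of 8 tested modifying genes, 4 and 2 of 11 breakdown genes, 1 and 2 of 8 precursor genes, 3 and 5 of 10 core genes, 4 and 11 of 15 chondroitin genes and 1 and 2 of 7 partners. The 42.4% thus includes 11 chondroitin genes and 2 partners, which lie outside the heparan sulfate pathway. At or under the floor in all libraries of 1 group were 1 linker, 2 modifying, 1 breakdown, 2 core and 4 chondroitin genes. The same held for 1 partner, and calls of such genes restate where each was detected. Of the linker calls, Pxylp1 (adjusted p = 0.0264) and B4galt7 (0.0381) were lost in 5 and 6 alternatives. Agrn, the gene of the basement membrane proteoglycan agrin, stood at 960.0 ± 139.7 CPM in m-ICc12 cells and 165 ± 32.9 in MEFs (log2 2.498, SE 0.17, edgeR adjusted p = 4.58e-08). Col18a1 stood at 1141 ± 214 and 23.1 ± 2.54 CPM (log2 5.58, SE 0.18, adjusted p = 3.98e-11).

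The comparison of treatment labels asks whether the response to a cytokine stimulus reached these genes. Within organoids, 0 of the 9 genes tested passed an edgeR adjusted p of 0.05, with 1 at an unadjusted p under 0.05 and 0 by DESeq2, while 1.39% of 12104 genes were called. The groups overlapped for all 9, as they did not for 0.496% of all genes tested. Hs3st1 had the largest difference. It ran from 8.43 over 15.1 to 26.4 CPM in the libraries labelled untreated and from 5.99 over 11.5 to 14.7 CPM in those labelled TNF-treated. It was lower under the second label in 7 of 9 cultures, and the groups overlapped (log2 -0.57, 95% interval -1.03 to -0.12, unadjusted p = 0.0154, adjusted p = 0.384). Hs6st1 and Ext2, with smaller differences, were higher under the second label in 7 of 9 cultures.

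The 2 syndecans leaned in opposite directions. Sdc1 was higher in the library labelled TNF-treated in 8 of 9 organoid cultures (181, 228 and 275 CPM as lowest, median and highest against 205, 253 and 291 CPM, log2 0.17, 95% interval -0.01 to 0.34, edgeR adjusted p = 0.584). Sdc4 was lower in 8 of 9 (182, 254 and 279 CPM against 173, 215 and 247 CPM, log2 -0.15, interval -0.35 to 0.04, adjusted p = 0.736). Neither passed the test. With the culture as a block, which uses that both libraries came from the same mouse, 397 genes were called in place of 168, and 0 of the 9 genes (3 at an unadjusted p under 0.05), with an adjusted p of 0.108 for Sdc1, 0.163 for Sdc4 and 0.198 for Hs3st1. Hs6st1 stood at medians of 96.1 and 99.5 CPM (log2 0.02, interval -0.15 to 0.18), and the other 5 genes differed by between -0.14 and 0.17.

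**Figure D4:**
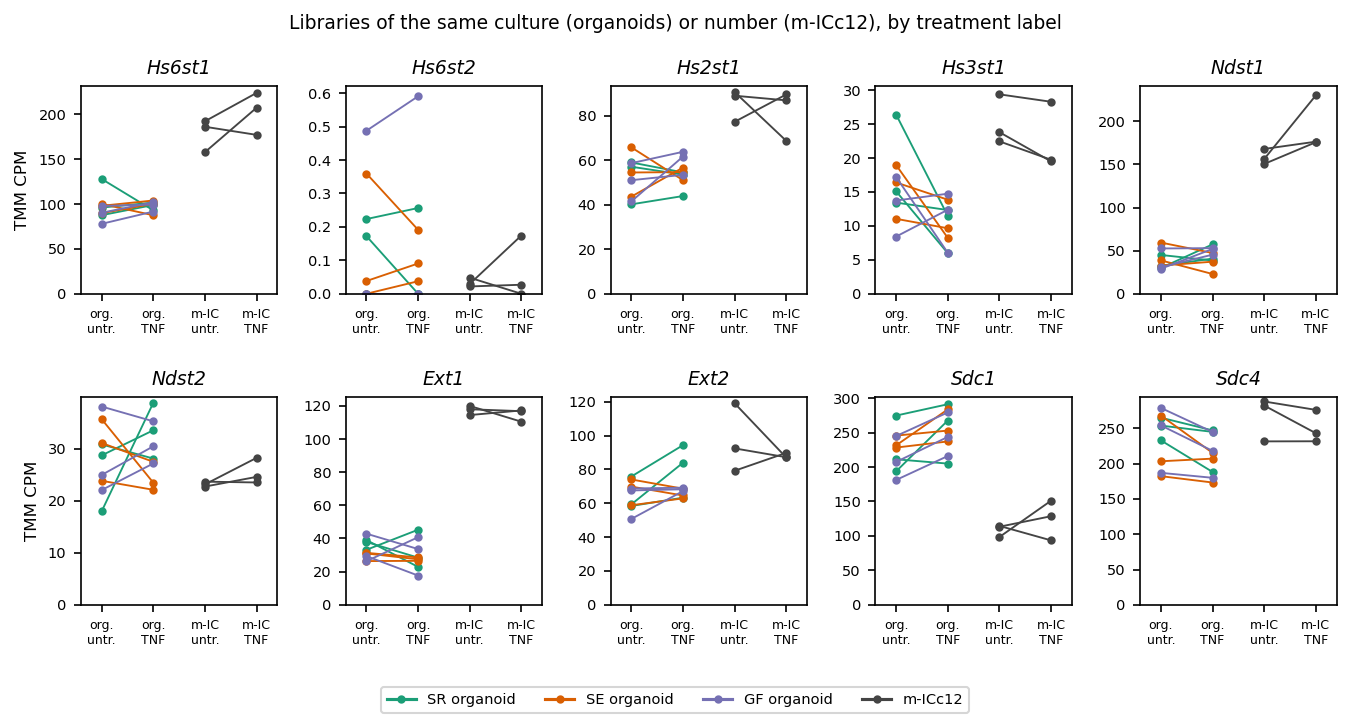
TMM CPM (y axis, from 0, a scale for each gene) of the libraries of 9 organoid cultures and of 3 m-ICc12 numbers, joined by lines from the library labelled untreated to the one labelled TNF-treated, coloured by facility. Hs3st1 has its lower value under the TNF label in 7 of 9 organoid cultures and Sdc4 in 8 of 9. Sdc1 has its higher value there in 8 of 9 and Hs6st1 and Ext2 in 7 of 9, and none passed the test.

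Within m-ICc12 cells, 0 of 9 genes passed, with 0 at an unadjusted p under 0.05 and 0 by DESeq2, against 0.110% of 11861 genes called. Ndst1 was the only one of the 9 whose groups did not overlap, at 156, 168 and 151 CPM in M1, M2 and M3 labelled untreated and 230.2, 176 and 176 CPM labelled TNF-treated (log2 0.31, 95% interval -0.04 to 0.65, edgeR adjusted p = 0.996). Of all genes tested, 9.38% did not overlap. The library with 230.2 CPM is M1, which had the fewest counts of all (6071103) and the largest share on Lars2. The difference between the label effects in organoids and in m-ICc12 cells was tested as an interaction and was past the threshold for 0 of 9 genes (0 at an unadjusted p under 0.05, smallest edgeR adjusted p = 0.943 for Ext2), with 0.159% of 13183 genes called.

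Among the genes of all these lists, Agrn was the only one called between the labels, 1 of 55 tested in organoids (1.82%, near the 1.39% of all genes) and 0 of 53 in m-ICc12 cells (by edgeR). In organoids it stood at 199 ± 31.0 CPM in the libraries labelled untreated and 142 ± 18.9 in those labelled TNF-treated, and it was lower under the second label in 9 of 9 cultures (SD, n = 9 each; log2 -0.49, SE 0.09, edgeR adjusted p = 0.00259). In m-ICc12 cells it was lower for 2 of 3 numbers and was not called.

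The origin of the mice was compared over the organoid libraries labelled untreated, which are the treated ones by the data names, to ask whether the donor's microbiota left a trace in these genes. Between 3 GF and 6 SPF cultures, 0 of 9 genes passed (edgeR, 0 at an unadjusted p under 0.05, 0 by DESeq2), against 0.0325% of 12315 genes called. The largest difference was that of Hs3st1 (log2 GF minus SPF -0.36, 95% interval -1.08 to 0.35), with 13.1 ± 4.42 CPM in GF (SD, n = 3) and 16.9 ± 5.37 in SPF cultures (SD, n = 6), and the groups overlapped for all 9 genes, as they did not for 2.14% of all genes tested. Between the 3 SE and 3 SR cultures, 0 of 9 passed (edgeR, 0 at an unadjusted p under 0.05, 0 by DESeq2), and 0% of 12219 genes were called, with 486 at an unadjusted p under 0.05. Ext1 was the only one of the 9 whose facilities did not overlap, at 33.2, 37.9 and 39.1 CPM in the SR cultures and 26.4, 31.0 and 31.3 CPM in the SE cultures (log2 -0.32, interval -0.81 to 0.17), while 9.16% of all genes did not overlap. The interaction of label with origin was past the threshold for 0 of 9 genes (edgeR, 0 at an unadjusted p under 0.05), with 0% of 12640 genes called and 323 at an unadjusted p under 0.05. For GF against SPF, the 95% intervals were narrowest for Sdc1 (-0.41 to 0.15) and widest for Hs3st1. The other 8 genes differed by -0.17 to 0.04 between GF and SPF, and the 8 other than Ext1 by -0.25 to 0.28 between SE and SR. Over the libraries labelled TNF-treated, 0 of 9 genes passed in either comparison (edgeR), with 0.0324% of 12356 and 0.00813% of 12299 genes called. The median difference of the 9 was 0.03 there in place of -0.08 for GF against SPF, and -0.19 in place of 0.05 for SE against SR.

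The spread over the 9 organoid libraries labelled untreated differed between the 9 tested genes, while Hs6st2 stood at 0 to 11 counts. The coefficient of variation ran from 12.9% for Ext2 and Sdc1 to 28.2% for Ndst1 and 32.9% for Hs3st1. Its median was 17.0% over the 9 genes tested and 22.4% over 12104 genes, which were not matched in level. With 1 library per culture, it holds library noise as well as differences between cultures. Whether a culture kept its rank from 1 library to the other was tested for these 9 genes. Sdc4 gave Pearson's r of 0.86 over 9 cultures (exact permutation p = 0.00595, adjusted over 9 genes p = 0.0535) and Spearman's rho of 0.77 (exact permutation p = 0.0214, adjusted p = 0.193). Without the 2 cultures farthest from the median, Z913 and Z918, its r was 0.64 over 7 cultures. Sdc1 gave an r of 0.63 (exact permutation p = 0.0698) and a rho of 0.63 (exact p = 0.0760), with an r of 0.30 without Z908 and Z918. The other 7 genes lay between -0.20 and 0.36, and none of the 9 passed after adjustment. The median r over all genes was 0.24. Each facility holds 3 cultures, too few for a value within facilities.

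Over all 27 libraries, the genes most like Hs6st1 in log2 CPM were Kcnk5, Sult1d1 and Cdkn1a (Pearson's r = 0.97 each), those most like Sdc1 were Pcyox1l (0.94), Elovl1 and Krtcap3 (0.93 each), and those most like Sdc4 were Cuedc2, Fbxo10 (0.69 each) and Snrnp27 (0.68), out of 14321 genes. The points share 3 cell types and paired cultures, and the values describe these libraries only.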

How the data were processed

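RNA was sequenced from 27 libraries with a poly-A kit that the labels call stranded. The authors trimmed the reads with Trimmomatic, aligned them to GRCm38 (STAR 2.5.4b per the submitters' processing notes) and counted reads per gene (GenomicRanges per the methods, featureCounts per the notes). What was deposited are raw integer counts per gene and library, for an identical set of 22524 genes in each. The use of strand and of multiply aligned reads is not given in the sources used here.

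Groups came from the sample labels. Names came from GENCODE vM21 (22214 of 22524 IDs matched), exon lengths too. The filter kept genes that reached 10 counts in 50% or more of any group's libraries. The tests used edgeR 4.0.16 (R 4.3.3) with TMM, the quasi-likelihood test and Benjamini-Hochberg adjustment over all genes tested, on the groups compared and without covariates. Log2 CPM used a prior count of 2. Ratios (0.5 added to each count) and agreement between libraries used exact permutation tests (scipy 1.17.1, Python 3.11.15), with all 362880 pairings for the latter. A floor of 3 counts marks detection, and exact intervals cover counting error only.

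The alternatives were DESeq2 1.42.0, upper quartile scaling, all genes with at least 1 count, all 27 libraries in 1 fit, the facility as a covariate, the libraries labelled TNF-treated, both libraries of a culture added up, the culture or replicate number as a block, 1 added to counts in ratios, CPM for the agreement and leaving out each culture. Leaving out Lars2 or the 2 Lars2-rich libraries was chosen after seeing the data. The 2 libraries of an organoid culture come from the same mouse, and their deviations from the label means correlated by 0.153 on average (0.0582 to 0.261), against -0.0754 for other pairs.

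The rule for names covered the 10 members, list genes with an adjusted p under 0.05 among the 6 largest differences of a list and comparison, from which the text gives examples, 4 NF-kB targets, and the 3 genes most correlated with Hs6st1, Sdc1 and Sdc4. The members and lists were chosen with earlier results of these data known. Methods were tested on simulated data with 1 common spread for all genes and no pairing. Of genes changed by 1 on the log2 scale, edgeR found 99.5% between the organoid labels and 82% between GF and SPF. It found 57.5% between the m-ICc12 labels, 51% between SE and SR and 47.5% between m-ICc12 cells and MEFs. False calls made up 2.93% to 7.07% of the edgeR calls and 8.72% to 17.6% of the DESeq2 calls. The proteome was not analysed here.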

Additional observations from a re-analysis of the deposited data

Results flagged for a closer look

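Hs6st1 in the organoid culture Z908, from facility SR, stood apart in the library labelled untreated. At 128 CPM it lay far above the other 8 cultures, whose highest value was 100.1 CPM, and also above the other 5 SPF cultures. The gap to the nearest culture passed Dixon's 95% critical value in both groups. In the library of Z908 labelled TNF-treated the gene stood at 93.0 CPM, inside the range of the other cultures. Of 30 groups tested in this way, 2 were flagged, both by this value, and chance flags about 1 in 20.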

How the results depend on the processing

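Members called stayed within 1.5 times in each comparison. Counts over all genes moved further. Between the labels in organoids, 168 became 397 with the culture block. Between the labels in m-ICc12 cells, 13 became 46 (DESeq2), 30 (at least 1 count), 26 (1 fit), 6 (block), 93 without M2 and 7 without the 2 Lars2-rich libraries. GF against SPF had 4, then 21 (DESeq2), 26 (1 fit), 7 (added up) and 2 without Z917, Z918 or Z919. SE against SR had 0, then 8 (DESeq2), 5 (at least 1 count), 2 (1 fit), 1 (added up), 1 without Z908, 35 without Z909 and 6 without Z912. The interaction with cell type had 21, then 103 (block), 11 without M2 and 40 without M3. Over 3 pairs each, the libraries of an m-ICc12 number correlated by 0.0311 and those of m-ICc12 and MEF by -0.0118. So few pairs cannot tell whether libraries of a number share more than that number. Blocks changed no member's call, with 8 of 10 members called between m-ICc12 cells and MEFs.

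Signs turned for Ndst1 between m-ICc12 cells and MEFs with the libraries labelled TNF-treated (0.20), Sdc4 between organoids and MEFs with upper quartile scaling (0.0055) and Sdc4 between the m-ICc12 labels without the 2 Lars2-rich libraries (0.022), none of them called. Hs3st1 between organoids and m-ICc12 cells also passed with DESeq2 (-0.71, adjusted p = 0.0474) and, by edgeR, without Z908 (-0.80, 0.0119) or Z911 (-0.71, 0.0478). Hs6st1 to Hs6st2 between organoids and m-ICc12 cells passed with 1 added to each count (-1.83, adjusted p = 0.0273 by the exact permutation test). With CPM, r of Ndst1 and Ext1 turned to 0.014 and -0.021. The cause was not tested.

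Leaving out 1 culture gave these ranges. Sdc4 between organoids and MEFs ran from -0.088 to 0.021 and Ndst1 between m-ICc12 cells and MEFs from -0.27 to 0.084. Between the organoid labels, Hs6st1 ran from -0.0069 to 0.086 and Ndst2 from -0.051 to 0.16. Between the m-ICc12 labels, Hs2st1 ran from -0.20 to 0.11, Ext1 from -0.041 to 0.012, Ext2 from -0.25 to 0.045 and Sdc1 from -0.0072 to 0.40. The ratio Ndst1 to Ndst2 ran from -2.42 to -2.21 (organoid against m-ICc12) and -1.63 to -1.42 (organoid against MEF), Ext1 to Ext2 from -1.42 to -1.16, -1.27 to -1.06 and -0.015 to 0.25 (m-ICc12 against MEF), Sdc1 to Sdc4 from 1.10 to 1.36 and 0.64 to 0.86, and Hs6st1 to Hs6st2 from 12.06 to 12.70 (organoid against MEF). Without 1 m-ICc12 or MEF library, 9 against 2 cannot pass after adjustment (adjusted p = 0.0623). The r of both libraries ran from 0.79 to 0.90 for Sdc4, past the threshold without Z909 or Z912 (adjusted p = 0.0214), from -0.49 to 0.18 for Hs6st1, -0.45 to 0.45 for Hs2st1, -0.21 to 0.11 for Ndst1, -0.50 to 0.30 for Ndst2, -0.19 to 0.28 for Ext1 and -0.015 to 0.54 for Ext2.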
